A study of Mus musculus with 9 samples.

Results

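The 10 genes described here encode the HSP90 and HSP60 chaperones and proteins that work with them. They were chosen by name, with earlier results of these data known. Hsp90aa1 and Hsp90ab1 encode the cytosolic HSP90 proteins. Hspd1, Hspe1 and Trap1 encode chaperones of the mitochondrial matrix. Ahsa1, Ahsa2, Stip1, Chordc1 and Fkbp4 encode HSP90 co-chaperones. All 10 were found among the 55487 genes of the deposited count table, and all 10 passed the filter on low counts that left 14851 genes for testing. Polyadenylated RNA of mouse gastrocnemius, a fast calf muscle, was sequenced from 3 groups of wild-type mice labelled as male C57BL/6, for which the text of the study names the substrain C57BL/6J. Control was 4 libraries of mice in conventional cages, Unloading was 2 libraries of mice whose hindlimbs had been kept off the ground for 10 days, and Reloading was 3 libraries of mice that, after unloading, had carried their weight again for 1 day. No group carried a transgene or received a drug, and no age was given in the labels. The methods of the study describe female mice for the unloading procedure, but in all 9 libraries Xist had at most 5 counts and each of 4 Y-linked genes had at least 164. The labels do not say that the libraries of a group came from separate animals, so p-values measure the spread between these libraries, which may be technical.

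HSP90 proteins are dimers that use ATP to finish the folding of client proteins, among them steroid hormone receptors and protein kinases, and co-chaperones load clients onto the dimer, pace its ATP cycle or release it. In the mitochondrial matrix the HSP60 ring, made from Hspd1, and its HSP10 lid, made from Hspe1, enclose newly imported proteins while they fold, and TRAP1 is the HSP90 of that compartment. Many genes of this family are induced by heat shock factor 1, which binds heat shock elements, arrays of the units TTC and GAA in alternation. Skeletal muscle relies on HSP90 in the folding of myosin and in the assembly of sarcomeres.

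Sequencing depth ranged from 9252443 to 19612101 read pairs assigned to genes per library. Levels are given as counts per 1000000 (CPM) after TMM scaling (trimmed mean of M-values), and all differences between groups come from edgeR's quasi-likelihood test over all genes, adjusted by Benjamini and Hochberg, with a threshold of 0.05. Control 2 and Reloading 1 stood apart in skin transcripts. The summed level of 8 skin markers was 310 CPM in Control 2 and 140 CPM in Reloading 1, against 2.89 to 4.80 CPM in the other 7 libraries. Of the 10 chaperone genes, 8 had their highest value of all in Reloading 1, so the fits were repeated without both libraries. Leaving them out kept the direction and the call of all 10 genes in Reloading vs Unloading, with log2 fold changes of 2.40 for Hsp90aa1, 0.50 for Hsp90ab1, 0.50 for Hspd1, 0.99 for Hspe1, -0.33 for Trap1, 0.66 for Ahsa1, 0.97 for Ahsa2, 1.31 for Stip1, 0.61 for Chordc1 and 0.27 for Fkbp4. In Reloading vs Control the same held for 9 of the 10, and Fkbp4 was no longer called (0.17, adjusted p = 0.122).

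Runs of heat shock element units are shown for the members that hold one near their start, so that the letters can be read beside the values that follow. Promoter windows came from RefSeq on build GRCm38.p6, reached from 250 bases before to 50 bases after a gene's start, and were held for 8 of the 10 genes (Ahsa1, Ahsa2, Chordc1, Fkbp4, Hspd1, Hspe1, Stip1 and Trap1). They were searched for TTC and GAA with any 2 bases between them, in either order, a match that reads the same on both strands, and for 3 such units in alternation, again 2 bases apart, which contains the shorter match and was sought on both strands. Of all 32851 windows, 15.1% held a match of 2 units and 0.603% held a match of 3. Hspe1, Chordc1, Fkbp4 and 1 of the 2 windows of Hspd1 held a match. The sequences are printed 5′ to 3′ on the strand of each gene, with the TTC and GAA units of the match in capitals.
Hspe1, chr1:55088053-55088082, plus strand: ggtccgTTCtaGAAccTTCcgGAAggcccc
Hspd1, chr1:55088053-55088082, minus strand: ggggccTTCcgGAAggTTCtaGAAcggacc
Chordc1, chr9:18292260-18292289, plus strand: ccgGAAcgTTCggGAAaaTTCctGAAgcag
Fkbp4, chr6:128438789-128438818, minus strand: ccgcttctctaGAAagTTCtccgctcccgc

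The Hspe1 and Hspd1 lines are the same 30 bases read on opposite strands. These genes stand head to head, and their run of 4 units began 89 bases before the start of Hspe1 and 144 bases before the more internal of 2 starts of Hspd1. The run lies in an annotated first exon of Hspd1, in its 5′ untranslated part. Chordc1 held the longest run, of 5 units, which began 4 bases before its RefSeq start. In the annotation used for counting Chordc1 starts earlier, at base 18292125, and the run lies in its first exon, also in the untranslated part. Fkbp4 held 2 units, 151 bases before its start and inside an exon of the predicted gene Gm10069. No match was found in the windows of Ahsa1, Ahsa2, Stip1 and Trap1. A match is a run of letters and was not measured as a bound site.

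Reloading vs Unloading asked how the muscle changed in the first day of renewed loading. Of the 10 genes, 9 were higher in Reloading and Trap1 alone was lower. Among all genes tested, 18.5% were called higher and 19.0% lower in this comparison. The 9 increases ran from 1.23-fold for Fkbp4 to 5.96-fold for Hsp90aa1, and the median log2 fold change of the 10 genes was 0.68, beside 0.03 for all genes tested. For all 10 genes the Reloading libraries and the Unloading libraries did not overlap. The share of all tested genes without overlap was not computed, so the separation is not shown to be particular to these 10.

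**Figure D1:**
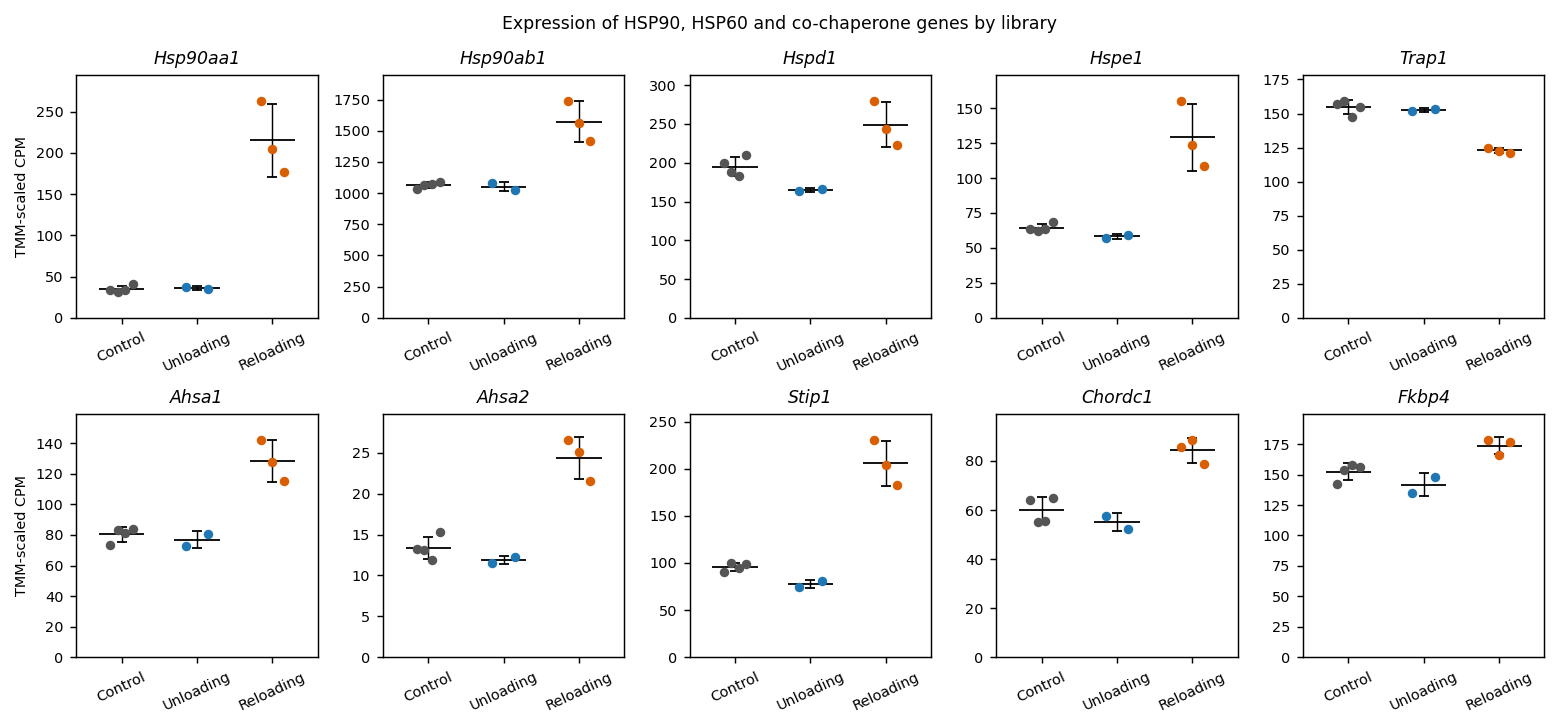
TMM-scaled CPM of each gene (y axis, from 0) in 4 Control, 2 Unloading and 3 Reloading libraries (points), with the group mean (long line) and SD (error bar). For 9 genes all Reloading points lie above the rest and for Trap1 they lie below: Hsp90aa1 rises from 31.5 to 40.4 CPM without reloading to 177 CPM or more, Trap1 falls to 121 to 125 CPM.

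Hsp90aa1, the stress-inducible cytosolic HSP90 (ENSMUSG00000021270, chr12:110690605-110702728, minus strand), had the largest change of the 10. Its level was 33.8, 31.5, 33.9 and 40.4 CPM in Control, 37.7 and 34.5 CPM in Unloading and 263, 204.5 and 177 CPM in Reloading. Control and Unloading overlapped, while the lowest Reloading library was more than 4 times the highest of the others. The mean rose 5.96-fold, from 36.1 ± 2.30 CPM (SD, n = 2) in Unloading to 215 ± 44.1 CPM (SD, n = 3) in Reloading. On the log2 scale this was 2.57 ± 0.15 (SE, adjusted p = 1.74e-08), and 2.62 ± 0.12 against Control (SE, adjusted p = 4.59e-10).

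Hsp90ab1, the constitutive cytosolic HSP90 (ENSMUSG00000023944, chr17:45567775-45573271, minus strand), was far more abundant and moved less. It stood at 1030, 1064, 1076 and 1092 CPM in Control, at 1079 and 1026 CPM in Unloading and at 1741, 1559 and 1417 CPM in Reloading. Control and Unloading again overlapped, and all 3 Reloading libraries were higher. The gene rose 1.49-fold over Unloading (log2 0.58 ± 0.09, SE, adjusted p = 0.000109) and by 0.56 ± 0.07 on the log2 scale over Control (adjusted p = 1.45e-05).

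Because the inducible gene rose more than the constitutive one, the make-up of the cytosolic pair shifted. Per kilobase of exon, Hsp90aa1 made up 2.44% ± 0.228 of the pair in Control (SD, n = 4), 2.55% ± 0.0702 in Unloading (SD, n = 2) and 9.38% ± 0.858 in Reloading (SD, n = 3). The ratio of Hsp90aa1 to Hsp90ab1, taken within each library and therefore free of the scaling of libraries, was 0.0226 to 0.0282 in Control, 0.0256 and 0.0267 in Unloading, and 0.115, 0.100 and 0.0952 in Reloading. It did not overlap between Reloading and the other groups. An exact permutation F-test of the log2 ratio over all assignments of libraries to the 3 groups gave p = 0.00556 (adjusted p = 0.0106 over 4 ratios), where the smallest p this design allows is 0.000794. The ratio was higher by 1.98 on the log2 scale in Reloading than in Unloading. With Reloading 1, 2 or 3 left out, fewer assignments remained and the adjusted p was 0.0635. The log2 differences were then 1.90, 2.00 and 2.04.

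**Figure D2:**
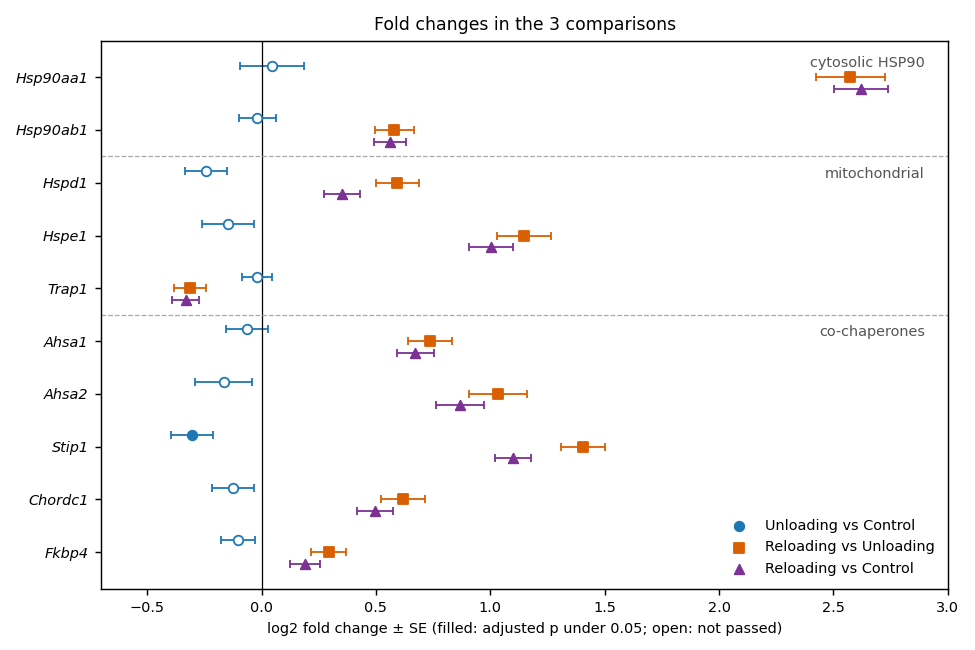
Log2 fold change (x axis) with SE for each gene (y axis) in Unloading vs Control (circles), Reloading vs Unloading (squares) and Reloading vs Control (triangles). Filled symbols passed the adjusted threshold and open ones did not: the squares and triangles are all filled, while Stip1 at -0.30 is the only filled circle.

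The mitochondrial genes split. Hspd1 (ENSMUSG00000025980, chr1:55077835-55088243, minus strand), the HSP60 subunit, had 199, 188, 182.5 and 210 CPM in Control, 163 and 166 CPM in Unloading and 280, 244 and 223 CPM in Reloading. Here the 3 groups did not overlap at all, with Unloading lowest and Reloading highest. The increase over Unloading was 1.51-fold (log2 0.59 ± 0.10, SE, adjusted p = 0.000223), and over Control the log2 fold change was 0.35 ± 0.08 (SE, adjusted p = 0.00207).

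Hspe1 (ENSMUSG00000073676, chr1:55088132-55091307, plus strand), the HSP10 lid, changed more than its partner. Its level was 63.4, 62.4, 63.3 and 68.6 CPM in Control, 56.9 and 59.6 CPM in Unloading and 155, 124 and 108 CPM in Reloading. The groups were ordered as for Hspd1 and did not overlap. Hspe1 rose 2.21-fold over Unloading (log2 1.15 ± 0.12, SE, adjusted p = 5.55e-06) and by 1.00 ± 0.10 on the log2 scale over Control (adjusted p = 1.28e-06).

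The ratio of Hspd1 to Hspe1 per kilobase fell accordingly. It was 1.61 to 1.76 in Control and 1.60 and 1.56 in Unloading. In Reloading it was 1.01, 1.10 and 1.15, so that the levels of Hspd1 and Hspe1 drew closer together. Which of them was higher in Reloading is not shown, given the shared exon bases and the copies described below. The exact permutation F-test gave p = 0.00159 (adjusted p = 0.00635), and the log2 ratio changed by -0.55 from Unloading to Reloading. The exons of these neighbours share 112 bases, 4.24% of those of Hspd1 and 7.60% of those of Hspe1, and counting did not use strand. Processed copies of both genes were also counted. The 5 copies of Hspd1 summed to 2.86 to 5.22% of its own counts, and the 7 copies of Hspe1 to 3.82 to 7.38%. Reads of a copy and of its parent cannot be told apart with certainty.

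Trap1 (ENSMUSG00000005981, chr16:4039971-4077827, minus strand), the mitochondrial HSP90, moved the other way. It was at 157, 159, 148 and 155 CPM in Control, at 152 and 154 CPM in Unloading and at 125, 123 and 121 CPM in Reloading. Control and Unloading overlapped and all 3 Reloading libraries were below them. The log2 fold change was -0.31 ± 0.07 (SE, adjusted p = 0.00249) against Unloading, where the Reloading level was 0.81 of the Unloading level, and -0.33 ± 0.06 (SE, adjusted p = 0.000332) against Control.

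The decrease of Trap1 depended on how libraries were scaled. TMM factors were 0.928 to 0.960 in Control and Unloading and 1.11 to 1.13 in Reloading. With library totals alone the median log2 fold change of all genes was 0.27 in Reloading vs Unloading and 0.25 in Reloading vs Control, against 0.03 and 0.01 with TMM, and calls were split into 5250 higher and 1090 lower, and into 6028 higher and 1484 lower, against 2743 and 2819, and 3287 and 3169, with TMM. Trap1 then stood at -0.06 (adjusted p = 0.470) and -0.09 (adjusted p = 0.205), below the median of all genes but no longer called. Over all 19 alternatives its adjusted p in Reloading vs Unloading ran from 6.21e-05 to 0.470. The 9 increases kept their direction and call with library totals. The ratio of Hsp90aa1 to Trap1, which no scaling changes, was 0.129 to 0.171 in Control, 0.163 and 0.147 in Unloading and 1.38, 1.09 and 0.955 in Reloading, with no overlap between Reloading and the rest. Its exact permutation F-test gave p = 0.00794 (adjusted p = 0.0106), and the log2 ratio was higher by 2.87 in Reloading than in Unloading. With Reloading 1, 2 or 3 left out, fewer assignments remained and the adjusted p was 0.0635. The log2 differences were then 2.72, 2.89 and 2.99. With TMM, Hsp90aa1 itself rose by 2.57 on the log2 scale, which is most of the change in this ratio. The ratio therefore cannot show whether Trap1 fell.

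**Figure D3:**
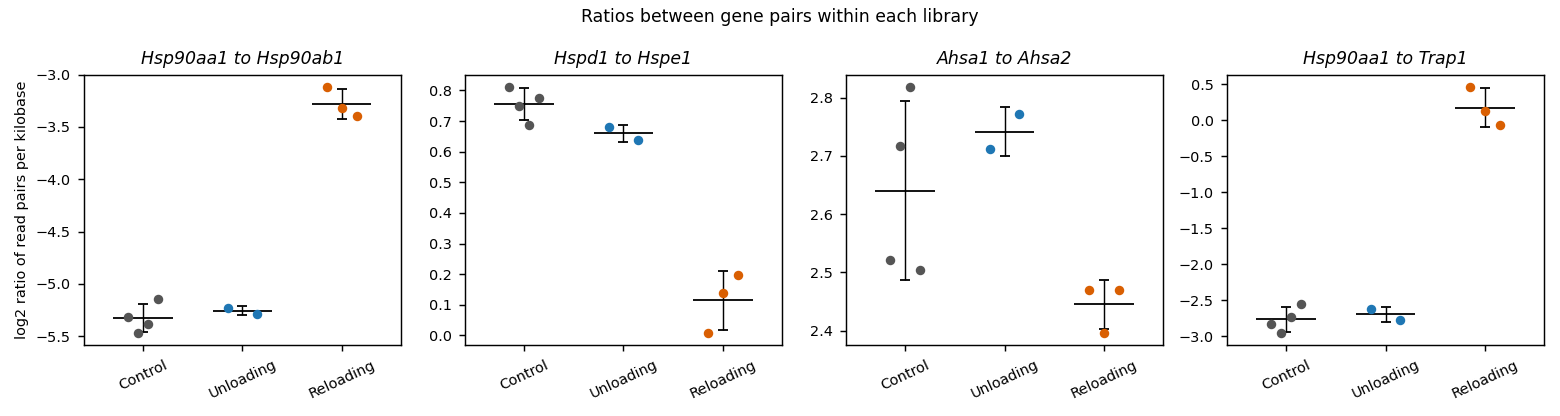
Log2 of the ratio of read pairs per kilobase (y axis) for 4 pairs of genes in each library (points, by group), with the group mean (long line) and SD (error bar). Reloading lies apart from Control and Unloading in the pairs Hsp90aa1 to Hsp90ab1, Hspd1 to Hspe1 and Hsp90aa1 to Trap1. Ahsa1 to Ahsa2, whose axis spans less than 1 log2 unit, gave p = 0.0690 in the exact permutation F-test.

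All 5 co-chaperone genes were higher in Reloading than in Unloading. Stip1 (ENSMUSG00000024966, chr19:7020702-7039967, minus strand) encodes HOP, the adaptor that bridges HSP70 and HSP90, and had the largest increase of the 5. It was at 90.4, 99.6, 94.7 and 98.8 CPM in Control, at 74.4 and 80.8 CPM in Unloading and at 231, 204 and 183 CPM in Reloading. The 3 groups did not overlap, with Unloading lowest. The increase over Unloading was 2.65-fold (log2 1.40 ± 0.10, SE, adjusted p = 1.14e-07), and the log2 fold change over Control was 1.10 ± 0.08 (SE, adjusted p = 6.21e-08).

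Ahsa1 and Ahsa2 encode activators of the HSP90 ATPase. Ahsa1 (ENSMUSG00000021037, chr12:87266479-87273998, plus strand) was at 73.2, 83.2, 81.3 and 83.7 CPM in Control, at 73.0 and 80.7 CPM in Unloading and at 142, 128 and 115 CPM in Reloading. The Unloading libraries overlapped Control, and those of Reloading stood above both. Ahsa1 rose 1.67-fold over Unloading (log2 0.74 ± 0.10, SE, adjusted p = 3.88e-05). Ahsa2 (ENSMUSG00000020288, chr11:23487882-23498030, minus strand) was the scarcest of the 10 genes, with 117 to 347 read pairs per library. Its level was 13.2, 13.1, 11.9 and 15.3 CPM in Control, 11.5 and 12.2 CPM in Unloading and 26.6, 25.1 and 21.5 CPM in Reloading. It rose 2.05-fold over Unloading (log2 1.03 ± 0.13, SE, adjusted p = 2.28e-05), and Reloading did not overlap the other groups.

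The value of Ahsa2 is uncertain, since 50.2% of its exon bases are shared with Usp34, Gm47279 and 1700030C12Rik and counting left out pairs that overlapped several genes. Mean CPM of Usp34 was 71.9 ± 8.16 in the 4 Control libraries, 73.4 ± 4.41 in the 2 of Unloading and 41.6 ± 4.36 in the 3 of Reloading (± SD), opposite in direction to Ahsa2. The ratio of Ahsa1 to Ahsa2 per kilobase was 5.67 to 7.06 in Control, 6.56 and 6.83 in Unloading, and 5.54, 5.26 and 5.54 in Reloading. Reloading was lowest without overlap, by -0.30 on the log2 scale against Unloading. The exact permutation F-test gave p = 0.0690 (adjusted p = 0.0690), so the pair was not shown to differ in response. Without Control 3, whose ratio was the highest, the adjusted p was 0.0429.

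Chordc1 (ENSMUSG00000001774, chr9:18292125-18317442, plus strand) encodes a zinc-binding HSP90 partner, and Fkbp4 (ENSMUSG00000030357, chr6:128429735-128438677, minus strand) the immunophilin FKBP52 of steroid receptor complexes. Chordc1 was at 64.2, 55.3, 55.5 and 64.9 CPM in Control, at 57.6 and 52.3 CPM in Unloading and at 85.8, 88.6 and 78.7 CPM in Reloading. It rose 1.54-fold over Unloading (log2 0.62 ± 0.09, SE, adjusted p = 0.000145). Reloading was clear of the other groups, and Reloading 2 was highest here.

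Fkbp4 was at 142, 154, 158 and 156 CPM in Control, at 135 and 148 CPM in Unloading and at 179, 166 and 177 CPM in Reloading. Control and Unloading overlapped, and the lowest Reloading library stood a little above the highest of Control. The increase was 1.23-fold over Unloading (log2 0.29 ± 0.08, SE, adjusted p = 0.00847) and 0.19 ± 0.06 on the log2 scale over Control (adjusted p = 0.0284). Without Unloading 1 the change against Unloading was 0.22 (adjusted p = 0.103, over 19 alternatives 5.08e-05 to 0.103), and 6 alternatives lost the call against Control, with adjusted p over all 19 between 4.38e-05 and 0.122.

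Unloading vs Control asked what 10 days without load had changed. Only Stip1 was called, lower by -0.30 ± 0.09 on the log2 scale (SE, adjusted p = 0.0467), so that 0 genes were higher and 1 lower, where 4.40% of all genes were called higher and 5.50% lower. Both Unloading libraries were below all 4 of Control. DESeq2 called Stip1 as well (adjusted p = 0.0328). The edgeR call was lost in 8 of 19 alternatives, with adjusted p from 0.0235 to 0.375, although all had the same direction. Hspd1 (-0.24 ± 0.09, SE, adjusted p = 0.104) and Hspe1 (-0.15 ± 0.11, SE, adjusted p = 0.453) were lower in both Unloading libraries than in all 4 of Control, but did not pass. The share of all tested genes separated in this way was not computed. Such separation is therefore not shown to be particular to Stip1, Hspd1 and Hspe1. For the other 7 genes the log2 fold change lay between -0.17 for Ahsa2 and 0.05 for Hsp90aa1, the groups overlapped and none passed. With 2 Unloading libraries, small changes were not detectable.

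Reloading vs Control used the same Reloading libraries, so it is no independent repeat of the comparison with Unloading. Again 9 genes were higher and Trap1 was lower, where 22.1% of all genes were called higher and 21.3% lower. Beyond the values given above, the log2 fold change was 0.67 ± 0.08 for Ahsa1 (SE, adjusted p = 8.48e-06), 0.87 ± 0.10 for Ahsa2 (SE, adjusted p = 1.11e-05) and 0.49 ± 0.08 for Chordc1 (SE, adjusted p = 0.000124). None of the listed genes overlapped between the groups, and here too the share of all tested genes without overlap was not computed.

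Levels of different genes were compared per kilobase of summed exon length, which counts exons that a muscle transcript may lack. In Control, Hsp90ab1 led with 355 ± 8.81 CPM per kilobase (SD, n = 4). Hspd1 (73.8 ± 4.67), Trap1 (60.1 ± 1.97), Fkbp4 (54.5 ± 2.56), Stip1 (45.5 ± 2.00), Hspe1 (43.7 ± 1.89), Ahsa1 (18.4 ± 1.11), Hsp90aa1 (8.88 ± 0.975), Chordc1 (7.997 ± 0.703) and Ahsa2 (2.95 ± 0.306) followed, in CPM per kilobase with SD. In that order the neighbours Stip1 and Hspe1, and Hsp90aa1 and Chordc1, overlapped over the 4 libraries, and the other neighbours did not. In Unloading the order was the same, except that Hspe1 (39.5 ± 1.28) stood above Stip1 (36.8 ± 2.15). In Reloading, Hsp90ab1 still led with 524 ± 54.2 CPM per kilobase (SD, n = 3). Hsp90aa1 had reached 54.7 ± 11.2, beside 97.6 ± 11.4 for Stip1, 94.2 ± 11.0 for Hspd1, 87.6 ± 16.2 for Hspe1, 62.2 ± 2.50 for Fkbp4 and 47.8 ± 0.748 for Trap1. The levels of Stip1, Hspd1 and Hspe1 overlapped there, and Hsp90aa1 overlapped both Fkbp4 and Trap1. Ahsa1 (29.3 ± 3.10), Chordc1 (11.3 ± 0.677) and Ahsa2 (5.38 ± 0.575) came last, without overlap. The place of Ahsa2 is uncertain in every group. Its length includes the 50.2% of exon bases shared with other genes, where pairs overlapping several genes were not counted. The 10 genes together took 0.182% of the read pairs of all tested genes in Control, 0.172% in Unloading and 0.325% in Reloading (group means).

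**Figure D4:**
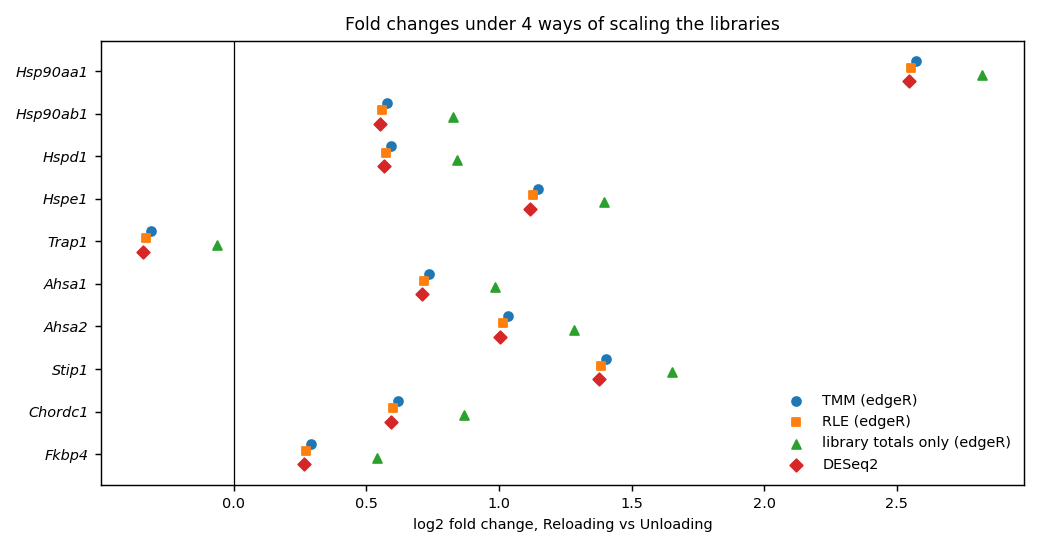
Log2 fold change in Reloading vs Unloading (x axis) of each gene (y axis) with TMM, with RLE size factors, with library totals only and with DESeq2. Library totals move all 10 genes to the right by about the same distance, which leaves the 9 increases in place and brings Trap1 from -0.31 to -0.06.

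The wider families were described from lists chosen with earlier results of these data known. Their counts stand beside the shares of all genes tested. These were 18.5% higher and 19.0% lower in Reloading vs Unloading, and 4.40% and 5.50% in Unloading vs Control. In Reloading vs Control they were 22.1% and 21.3%. No list was tested against these shares. Of 20 further HSP90 partners, including the HSP90 of the endoplasmic reticulum, 5 were higher and 6 lower in Reloading vs Unloading, with a median log2 fold change of -0.07. The 5 that rose were Hsp90b1, the endoplasmic reticulum HSP90 (0.93), Unc45b, the muscle myosin chaperone (0.74), its general relative Unc45a (0.65), the immunophilin Ppid (0.60) and Ptges3, the p23 co-chaperone (0.42). Those that fell included Fkbp5, a glucocorticoid-induced immunophilin (-1.75), Sugt1 (-0.68), Itgb1bp2, the muscle protein melusin and like Chordc1 a CHORD-domain protein (-0.63), Fkbpl (-0.45) and Fkbp8 (-0.34). Fkbp5 and Fkbp4, both immunophilins of steroid receptor complexes, were therefore called in opposite directions. In Unloading vs Control 1 of the 20 was higher and 3 were lower, and in Reloading vs Control 4 were higher and 8 lower.

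Among 18 other mitochondrial chaperones and proteases, 3 were higher and 6 lower in Reloading vs Unloading (median -0.14). Of all genes tested, 18.5% and 19.0% were. Afg3l2, a subunit of the inner membrane protease (0.62), Hspa9, the matrix HSP70 (0.40), and its co-chaperone Dnaja3 (0.36) rose. Clpx (-0.58), Spg7 (-0.44), Lonp1 (-0.30) and Yme1l1 (-0.29), subunits of matrix or inner membrane proteases, fell, as did Dnajc19 (-0.43) and Clpb (-0.22). The other 9 genes did not pass. In Unloading vs Control 0 were higher and 1 was lower, and in Reloading vs Control 2 were higher and 9 lower. Of 8 genes tied to the mitochondrial stress response, 6 were tested, of which Trib3 (1.67), Ddit3 (0.85), Atf4 (0.56) and Atf5 (0.50) rose and Ubl5 fell (-0.37). Fgf21 and Gdf15 were too low to test. Of the 6, 0 were called in Unloading vs Control, and 4 were higher and 1 lower in Reloading vs Control.

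A further list held 12 heat shock factors, HSP70 proteins, their partners and small heat shock proteins. Of the 12, 11 were higher in Reloading vs Unloading and 0 were lower (median 2.10), and Hsf2 did not pass (-0.05). Hspa1b (6.94) and Hspa1a (6.37), the inducible HSP70 genes, Hspb1 (3.86) and Cryab (3.56), small heat shock proteins, Dnajb1 (3.18), an HSP40, and Hsph1 (2.37), an HSP70 exchange factor, led. Hsp90aa1, at 2.57, lay among these, and Hsf1, the factor itself, rose by 0.25 ± 0.09 (SE, adjusted p = 0.0354). In Unloading vs Control 0 of the 12 were higher and 2 lower, and in Reloading vs Control 10 were higher and 0 lower. Of 15 HSP90 clients, 5 were higher (Erbb2, Ripk1, Cdk4, Akt1 and Ikbkb) and 4 lower (among them the glucocorticoid receptor gene Nr3c1 and Map3k7), with a median of 0.08. The shares of all genes tested, higher and lower, were 18.5% and 19.0%. In Unloading vs Control 2 of the 15 were higher and 0 lower, and in Reloading vs Control 6 were higher and 4 lower.

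**Figure D5:**
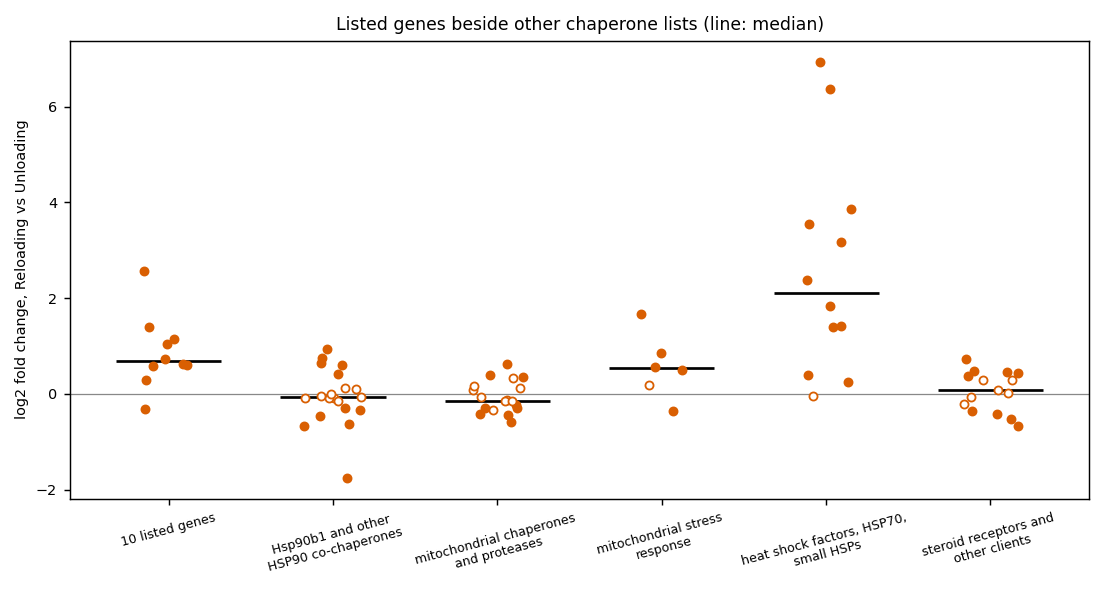
Log2 fold change in Reloading vs Unloading (y axis) of the 10 genes and of 5 other lists (x axis), 1 point per tested gene, filled where the adjusted threshold was passed, with the median as a line. The heat shock factor and HSP70 list has a median of 2.10, while the medians of the other HSP90 partners and of the other mitochondrial genes, -0.07 and -0.14, lie below 0.

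Markers of the tissue were present throughout, but their levels moved with reloading. The summed level of 8 skeletal muscle markers was 153407 to 168586 CPM in Control, 154095 to 161205 CPM in Unloading and 108847 to 120584 CPM in Reloading. The 8 macrophage markers summed to 64.9 to 78.8, 67.7 to 68.4 and 142 to 160 CPM in the same order. Cd68 made up a large part of that rise, with means of 3.05 CPM in Unloading and 45.9 CPM in Reloading. In Reloading vs Unloading 7 of the 8 were higher, and Cd14 did not pass. In the order Control, Unloading and Reloading, the 5 endothelial markers summed to 139 to 159, 133 to 135 and 234 to 290 CPM. The 4 smooth muscle markers summed to 41.4 to 47.2, 42.1 to 45.6 and 97.3 to 113 CPM. The 5 fibroblast markers summed to 426 to 618, 500.4 to 513 and 569 to 735 CPM, but did not move together. In Reloading vs Unloading, Col1a1 (log2 fold change 1.68) and Col3a1 (1.38) were higher. Pdgfra (-0.62) and Dcn (-0.49) were lower, and Lum (0.34) did not pass. Neutrophil, adipocyte and erythrocyte markers overlapped between Control and Reloading. Between Unloading and Reloading only the erythrocyte markers overlapped. Summed neutrophil markers were at 0.820 to 0.973 CPM in Unloading and 1.66 to 4.24 CPM in Reloading. Summed adipocyte markers were at 25.3 to 36.0 CPM and 38.3 to 38.9 CPM. Of the single markers tested in these lists, only Cidec passed in Reloading vs Unloading (0.76). Reads of the mitochondrial genome made up 9.36 to 10.6% of read pairs in Control and Unloading and 6.49 to 6.75% in Reloading. In bulk tissue, fewer cells of a type and less RNA per cell cannot be told apart, and the part of these markers in the results for the chaperone genes was not tested.

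The genes whose profile over the 9 libraries was most like that of Hsp90aa1, by the root mean square difference of centred log2 CPM among 9872 genes, were Gusb (0.17), Thbs1 (0.18), Slc22a4 (0.18), Srxn1 (0.21) and Tubb6 (0.22). For Hspd1 they were Jmjd8 (0.07), Clstn1 (0.07), Unc45a (0.07), Fbl (0.08) and Grwd1 (0.08). Unc45a is also an HSP90 partner, and Fbl and Grwd1 encode nucleolar proteins.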

How the data were processed

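The authors aligned reads with STAR 2.7.3a to GRCm38.p6 and made counts of read pairs per gene with featureCounts 2.0.3 against Ensembl release 102, unstranded and without multi-mapping or multi-overlapping pairs. The labels name paired-end libraries. The deposited table holds raw counts and summed exon lengths. The authors' comparison tables hold their own DESeq2 fold changes and p-values, which were not used, and a mean signal per gene (counts over size factors), deposited by the authors, that was read only to pair gene IDs with symbols.

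Groups came from the sample labels. Genes were kept by filterByExpr (minimum count 10, minimum total 15), leaving 14851 of 34376 genes with counts. All 9 libraries were fitted in edgeR 4.0.16 (R 4.3.3) by the two-sided quasi-likelihood F-test with TMM scaling and group as the only term (biological coefficient of variation 0.0927). SE was the absolute log2 fold change over the root of F. Ratios within a library were tested by an exact permutation F-test. The fit was tested on simulated data. Genes named beyond the 10 members were those passing the test in each list, and the 5 nearest in profile to Hsp90aa1 and Hspd1, and some of them are not reported here. Members and lists were chosen with earlier results of these data known. Alternatives were DESeq2 1.42.0, other scalings and filters, a robust fit, blocks and left-out libraries.

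The labels carry numbers in titles and in descriptions. By the description numbers, the pairs of Reloading and Control libraries deviated together (r = 0.361, 0.143 and 0.155 across genes), and the first of these is the pair with skin transcripts. The numbers in the titles gave -0.191, -0.201 and -0.0165. Blocking by the description numbers changed no call of the 10 genes.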

Additional observations from a re-analysis of the deposited data

Results flagged for a closer look

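In Control, Hspe1 was at 68.6 CPM in Control 4 and at 62.4 to 63.4 CPM in the other 3 libraries, a gap of 0.844 of the range of the group and above Dixon's critical value for 4 samples. Chance gives about 1 such gap in 20 groups, and 14 groups were looked at.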

How the results depend on the processing

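For the 10 genes, 30 log2 fold changes were recomputed under 19 alternatives, 570 values in all, of which 545 kept direction and call, 17 lost the call and 8 changed sign. All 8 changes of sign were in Unloading vs Control and in values that had not passed. Hsp90aa1 went to -0.026 with the replicate block by description numbers, to -0.0024 without Control 2, to -0.0146 without Unloading 1 and to -0.0009 without both libraries with skin transcripts. Hsp90ab1 went to 0.0182 without a filter and to 0.0166 without Unloading 2, Trap1 to 0.0174 without a filter, and Ahsa1 to 0.0079 without Unloading 1. With single libraries left out, Hsp90aa1 reached 0.13, Hsp90ab1 -0.051 and Ahsa1 -0.14 at the other end. The lost calls concern Stip1 and Fkbp4 and, with library totals, Trap1.

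In Unloading vs Control, genes called numbered 1470, and between 121 (without Unloading 1) and 1518 with single libraries left out, and 949 without Control 3. A group left with 1 library was assumed to vary like the others. Members called went from 1 to between 0 and 1: the call of Stip1 was lost without Control 2, 3 or 4, Reloading 2 or either Unloading library, and the count was 0 also with the replicate block by title numbers and without both skin libraries. The title block, whose numbers pair nothing by the check of pairing, also lost Fkbp4 in Reloading vs Control (0.20, adjusted p = 0.0516), and gave 5108, 1042 and 5705 genes called in Reloading vs Unloading, Unloading vs Control and Reloading vs Control, against 5562, 1470 and 6456 without it. The description block changed no call of the 10 genes and gave 4902, 1479 and 6632.

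With single libraries left out, the Reloading minus Unloading difference of the log2 ratio ran from 1.90 to 2.04 for Hsp90aa1 to Hsp90ab1, from 2.72 to 2.99 for Hsp90aa1 to Trap1, from -0.59 to -0.49 for Hspd1 to Hspe1 and from -0.33 to -0.27 for Ahsa1 to Ahsa2. Without both skin libraries 3 ratios no longer passed: 1.90 (adjusted p = 0.127), -0.49 (adjusted p = 0.0762) and 2.72 (adjusted p = 0.127) for Hsp90aa1 to Hsp90ab1, Hspd1 to Hspe1 and Hsp90aa1 to Trap1, with fewer assignments to draw on. Depth limits Ahsa2 most, with 117 read pairs in its lowest library.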
